A study of Mus musculus with 4 samples.

Results

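The Zfp genes are mouse genes whose symbol is Zfp followed by a number alone, and most of them encode zinc finger proteins. Members were chosen by symbol, with Zfp36 left out, and by a mean of at least 100 reads over the 4 libraries. Of 24421 genes in the table, 336 had such a symbol, and 208 of these passed the read threshold. The threshold used the mean level alone, so the levels themselves are a description.

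RNA sequencing measured polyadenylated transcripts of whole embryos of the ICR mouse strain. Wild-type embryos gave 1 library at embryonic day 7.5, called E7.5 WT, and 1 at embryonic day 8.5, called E8.5 WT. Ddx6 -/- embryos of embryonic day 8.5 gave 2 libraries, KO1 and KO2. The KO allele lacked a floxed exon that had been removed with CAG-Cre, and the embryos came from crosses of heterozygous parents. Per the study's text, KO1 was a pool of embryos from before and after head-fold formation, whereas the embryos of KO2 were all from before it.

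Classical C2H2 zinc fingers are small folds in which a pair of cysteines and a pair of histidines hold a zinc ion, and arrays of them bind DNA in a sequence-specific way. Many Zfp proteins also carry a KRAB domain, which recruits the corepressor Trim28 and silencing enzymes, and KRAB zinc finger genes are known for repressing transposable elements in early embryos. Ddx6 encodes an RNA helicase of P-bodies, the cytoplasmic granules that hold translationally repressed mRNAs, and AU-rich mRNAs such as those of zinc finger genes are known to be stored there. The comparisons asked whether the transcript levels of Zfp genes differed between Ddx6 KO and WT embryos, and whether their shift differed from that of other genes with like read numbers.

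In the translated GENCODE coding sequences, 91 members had both a KRAB box and C2H2 fingers, 109 had C2H2 fingers without a KRAB box that could be found, and 8 matched no C2H2 finger pattern. The median number of fingers was 12 in the KRAB members and 7 in the C2H2 members without KRAB. The stretch that runs from the end of one finger into the next is well conserved in these proteins, apart from the residues between the histidines, and the members differ in the bases they use for it. The first such stretch of 7 KRAB members is given here because the last base of each codon shows how far the members range between A or T and G or C. Each is 30 bases of the coding strand within 1 coding exon, 5′ to 3′, on GRCm38, and capitals mark the codons of the zinc-binding histidines. Zfp948, Zfp945 and Zfp850 were among the members with the lowest changes in the KO libraries, Zfp110, Zfp612 and Zfp282 were among those with the highest, and Zfp568 is a KRAB member with many reads.
Zfp948, chr17:21587241-21587270, plus strand: CATcagagaattCATactggtgagaaaccc
Zfp945, chr17:22851877-22851906, minus strand: CATcagagaattCATactggagagagacct
Zfp850, chr7:27990185-27990214, minus strand: CATcatagtgttCACactggagagaagccc
Zfp568, chr7:30022940-30022969, plus strand: CACcagcgcatcCACactggggagaagcct
Zfp110, chr7:12849542-12849571, plus strand: CATaagaagatcCACacaggagagcggcca
Zfp612, chr8:110089057-110089086, plus strand: CACcagaggatcCACacaggagagaagccg
Zfp282, chr6:47905142-47905171, plus strand: CACcagcggctgCACacgggcgagcggccc

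Of the 10 codons of this stretch, 7 ended in A or T in Zfp948, 8 in Zfp945 and 6 in Zfp850. The same count was 4 in Zfp110, 2 in Zfp612 and 0 in Zfp282. It did not follow the change throughout, since Zfp568, which was lower in both KO libraries, had 2, Zfp647 and Zfp60 of the lowest members had 4 and 5, and Zfp954 of the highest had 4. Over all 589 such stretches of 90 KRAB members, 56.6% of the last codon bases were A or T. The share was 37.7% over 254 stretches of 62 C2H2 members without KRAB.

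Over whole transcripts, the members had a lower GC content than other genes. The median GC content was 47.2% in the members against 50.6% in 9738 other genes with a mean of at least 100 reads, and it was 42.9% in the KRAB members and 50.8% in the C2H2 members without KRAB. At the last base of all codons, the median GC contents were 53.6% in the members and 60.6% in the other genes. The 3′ UTRs had a median GC content of 41.3% in the members and 44.7% in the other genes. The pentamer AUUUA, the core of AU-rich elements and searched on the transcript strand alone with overlaps counted, occurred 1.53 times per kb in the median member and 1.28 times per kb in the median other gene. These differences were not shared by both classes. The median AUUUA frequency was 1.85 per kb in the KRAB members and 1.22 in the C2H2 members without KRAB, below the other genes. At the last base of codons the median GC contents were 43.7% and 60.6% in the same order. The 3′ UTRs of the C2H2 members without KRAB had a median of 44.8%, close to the other genes.

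The members were concentrated on a few chromosomes. Chromosome 7 held 49 of them (23.6%) and 680 of the other genes. Chromosome 17 held 24 members (11.5%), where it held 4.64% of the other genes. Members within 500 kb of each other formed 7 clusters of at least 5 members, with 51 members in all.

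Total counts were between 8198402 in KO1 and 12562640 in E8.5 WT. Ddx6 (chromosome 9, 44604892 to 44640731, plus strand) had 2943 reads in the E7.5 WT library, 5715 in the E8.5 WT library, 706 in KO1 and 929 in KO2, so that both libraries labelled KO were below both WT libraries. Marker lists differed between the libraries. The summed level of 7 trophoblast giant cell genes was 770 CPM (counts scaled to a common library size) in KO2 and between 1.54 and 14.7 in the other libraries, and 2 of the 7 genes were at 0 in KO2. The 4 primitive streak genes summed to 436 CPM in KO2, 118 in KO1, 88.7 in E8.5 WT and 465 in E7.5 WT, and 3 paraxial mesoderm genes to 14.4, 220, 189 and 36.4 in the same order. The part of such differences in the results below was not tested. In whole embryos, fewer cells of a type and less RNA per cell cannot be told apart.

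Zfp genes were slightly lower in each KO library than in the E8.5 WT library. For the 208 members the median log2 change from E8.5 WT was -0.17 for KO1 and -0.15 for KO2, with a mean of -0.16 ± 0.013 (SD, n = 2). Both KO libraries were set against a single WT library, so this SD and those below leave out any spread between WT libraries. For the 9738 other genes the medians were -0.01 and -0.02. Changes are differences of log2 CPM with a prior count of 2. The quartiles of the members were -0.35 and 0.03 in KO1 and -0.37 and 0.02 in KO2, and those of the other genes -0.20 and 0.20 in both. In KO1 the SD across genes was 0.29 in the members and 0.42 in the other genes, and in KO2 it was 0.37 and 0.69.

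**Figure D1:**
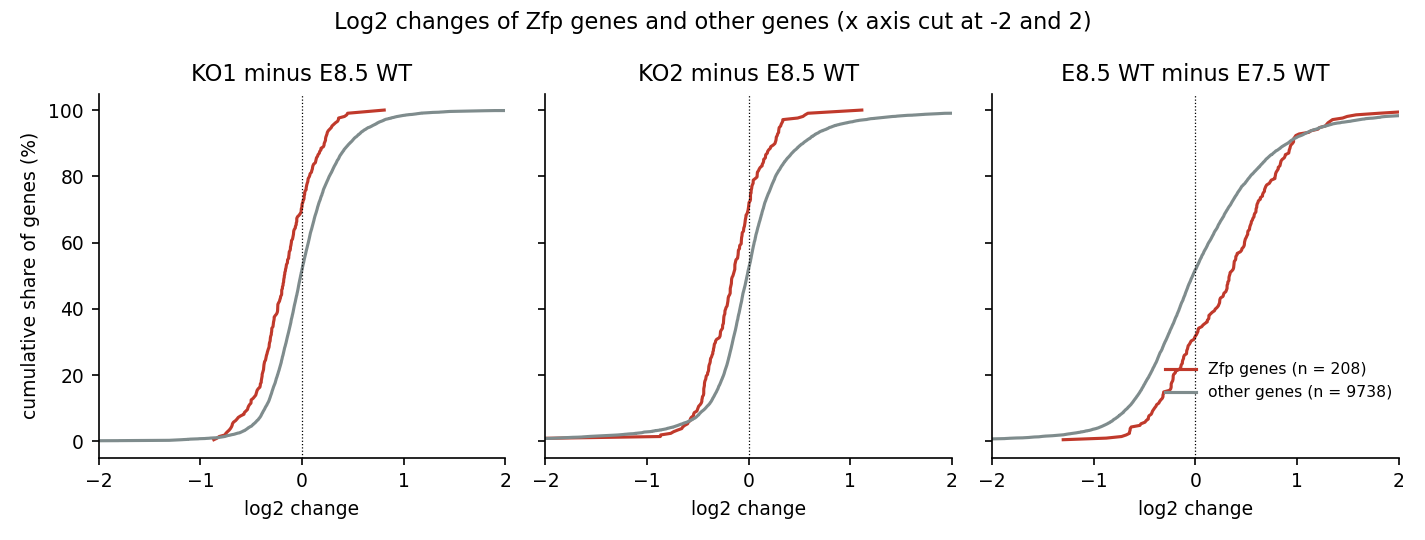
Cumulative share of genes (%) against log2 change for the 208 Zfp genes and the 9738 other genes with a mean of at least 100 reads, in KO1 and KO2 against E8.5 WT and in E8.5 WT against E7.5 WT. The Zfp curve lies left of the other genes over most of its length in both KO panels and right of them in the stage panel, with medians of -0.17, -0.15 and 0.34.

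The shift of the members was read against other genes of the same read level, since genes with fewer reads had slightly higher changes. Among other genes, those with a mean of 100 to 200 reads had a median of 0.08 in each KO library, and those with at least 1600 reads had -0.08 and -0.07. Weighted to the members' read levels, the other genes' medians came to 0.03 in both libraries. The members were lower than this by 0.20 in KO1 and 0.18 in KO2, a mean difference of -0.19 ± 0.018 (SD, n = 2). The members' medians were negative in all 5 read classes, between -0.25 (the 9 members with at least 1600 reads) and -0.08 (the 21 members with 800 to 1600 reads) in KO1, and between -0.25 and -0.10 in KO2.

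Of all members, 123 (59.1%) were lower in KO1 as well as KO2 than in E8.5 WT, against a background of 39.1% of the other genes and 36.6% of all 14393 genes kept. Those higher in both numbered 37 (17.8%), against backgrounds of 35.1% and 37.2%, and 48 differed in direction between KO1 and KO2. With exact 95% counting intervals entirely below 0 in both KO libraries there were 56 members (26.9%), and the background of other genes was 18.5%. With intervals above 0 in both there were 7 members (3.37%), namely Zfp335, Zfp593, Zfp282, Zfp579, Zfp444, Zfp110 and Zfp473, where the background was 16.2%. These intervals cover counting error only, and both KO libraries were set against the same single WT library.

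No member passed a log2 change of 1 in both KO libraries in either direction. The background was 3.48% of all genes kept above 1 and 1.74% below -1, and 1.1% and 0.462% of the other genes with a mean of at least 100 reads. The edgeR quasi-likelihood test, with Benjamini-Hochberg adjustment, called 0 members and 0% of all genes kept. At an unadjusted p under 0.05 it gave 13 members, all lower in the KO libraries, among 7.36% of all genes kept. The smallest adjusted p of a member was 0.663. DESeq2 also called 0 members, against 0.215% of all genes, and gave 2 members, Zfp507 and Zfp516, at an unadjusted p under 0.05. Each WT stage was 1 library, so the spread in these tests came from the KO libraries alone, which were different pools of embryos that also differed in morphological makeup.

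Zfp507 (chromosome 7, 35772343 to 35803003, minus strand) had 600 reads in the E7.5 WT library, 882 in the E8.5 WT library, 359 in KO1 and 535 in KO2. After scaling, E8.5 WT was the highest library, and KO1 and KO2 lay close together under E7.5 WT. Against E8.5 WT its mean log2 change came to -0.72 ± 0.023 (SD, n = 2; edgeR adjusted p = 0.663), with counting intervals of -0.92 to -0.56 in KO1 and -0.86 to -0.55 in KO2.

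Zfp948, a KRAB member (chromosome 17, 21567008 to 21588699, plus strand), had 295 reads in the E7.5 WT library, 458 in the E8.5 WT library, 183 in KO1 and 265 in KO2. Its log2 changes were -0.76 in KO1 and -0.77 in KO2, the closest agreement between KO libraries among the 10 lowest members. Zfp105 had 241, 349, 132 and 222 reads in the same order of libraries and log2 changes of -0.83 and -0.63. The KRAB members Zfp60, Zfp945, Zfp647 and Zfp850 showed the same order, with E8.5 WT above both KO libraries, and mean log2 changes of -0.69, -0.64, -0.78 and -0.60. Zfp516, known for its part in brown fat, had 1860, 957 and 1007 reads in the E8.5 WT, KO1 and KO2 libraries, with log2 changes of -0.40 and -0.87.

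The lowest mean changes belonged to Zfp503 and Zfp703, a pair of related corepressors whose single atypical finger did not match the C2H2 pattern used here. Zfp503 (chromosome 14, 21983959 to 21989601, minus strand) had 40 reads in the E7.5 WT library, 562 in the E8.5 WT library, 269 in KO1 and 73 in KO2. It was thus closer to E8.5 WT in KO1 and closer to E7.5 WT in KO2, with log2 changes against E8.5 WT of -0.50 and -2.89. Zfp703 had 544, 1367, 891 and 364 reads in the same order, with log2 changes of -0.06 and -1.88. For both genes the difference between KO1 and KO2 exceeded the change of KO1 from E8.5 WT. The KO2 pool, whose embryos were all from before head-fold formation, was also the library with few paraxial mesoderm reads, and the part of this in either gene was not tested. KO1 and KO2 differed by more than 1 in 3 members (1.44%), these and Zfp365, where the background of other genes was 4.04%.

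The members with the highest changes had smaller values. Zfp473, the mouse counterpart of a factor of histone pre-mRNA processing (chromosome 7, 44731480 to 44751050, minus strand), had 308 reads in the E7.5 WT library, 128 in the E8.5 WT library, 119 in KO1 and 230 in KO2. Both KO libraries lay between the WT libraries, with log2 changes of 0.45 and 0.85 against E8.5 WT (mean 0.65 ± 0.29, SD, n = 2; edgeR adjusted p = 0.664). Zfp579 had 92, 90, 108 and 125 reads, above both WT libraries after scaling, with log2 changes of 0.81 and 0.48. Zfp110 had 556, 435, 379 and 623 reads and log2 changes of 0.36 and 0.53. Zfp365 had 57, 99, 68 and 214 reads, and its change of 1.11 in KO2 stood beside 0.02 in KO1. Zfp954, Zfp444, Zfp612, Zfp282, Zfp109 and Zfp593 had mean changes between 0.30 and 0.48.

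**Figure D2:**
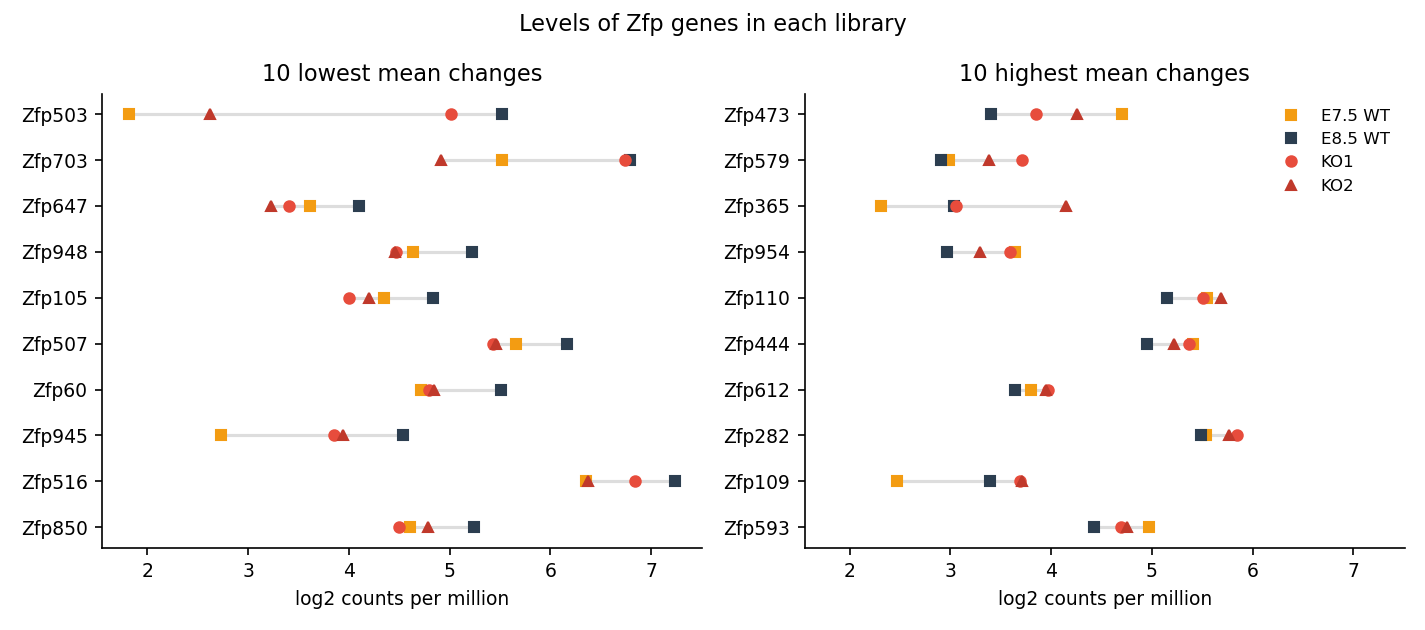
Level of the 10 members with the lowest and the 10 with the highest mean log2 change against E8.5 WT, as log2 CPM in each of the 4 libraries. E8.5 WT is the highest library for all 10 genes on the left, and the E7.5 WT points lie close to the KO points for many genes of both panels.

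KRAB members were lower than C2H2 members without KRAB in KO1, and the gap was smaller in KO2, a description with no test of the difference. The medians of the 91 KRAB members were -0.28 and -0.18, and those of the 109 C2H2 members without KRAB were -0.10 and -0.11. The 8 members without a finger match had -0.18 and -0.21. Of the KRAB members 60 (65.9%) were lower in both KO libraries, and of the C2H2 members without KRAB 57 (52.3%). The classes also differed in GC content, and 58 of the KRAB members were in the lowest of 5 equal classes of transcript GC content. These 58 had -0.30 and -0.18, all 84 members there -0.24 and -0.18, and the other genes there -0.11 and -0.12. The part of GC content in the gap was not tested. Zinc finger genes with other symbols had medians on the same side in most cases. The 18 KRAB genes with any other symbol had -0.31 and -0.19, the 26 Zbtb genes -0.15 and -0.16, and the 5 Zkscan genes -0.26 and -0.35. Genes of the named families with a KRAB box and C2H2 fingers also count among the 18, so these groups can overlap. The 9 Zscan genes had -0.19 and 0.04. Of the 15 genes for KRAB cofactors and linked silencing factors, 7 (46.7%) were lower and 3 (20%) higher in both KO libraries. The backgrounds of other genes were 39.1% and 35.1%. The medians of the 15 genes were -0.08 and 0.01. Trim28, the KRAB corepressor, had log2 changes of -0.11 and 0.01, and the histone methyltransferase gene Setdb1 -0.24 and -0.21. The DNA methyltransferase gene Dnmt3b had 18206 reads in the E7.5 WT library, 5529 in the E8.5 WT library, 4802 in KO1 and 28440 in KO2, and thus differed between the KO libraries more than from WT in KO1.

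**Figure D3:**
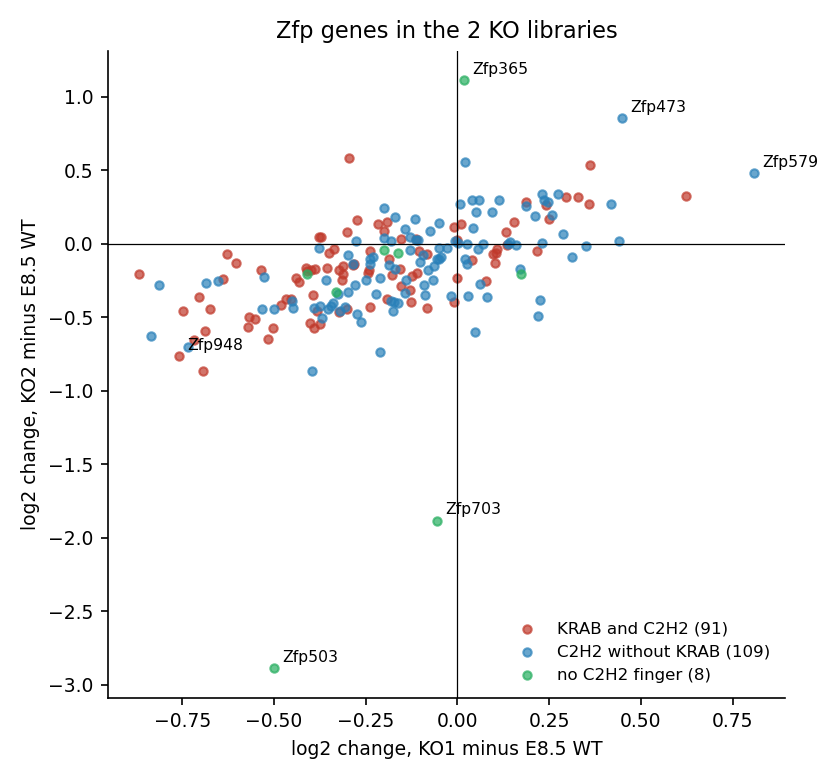
Log2 change against E8.5 WT in KO1 (x axis) and KO2 (y axis) for each Zfp gene, coloured by class. Most points lie in the lower left part, and Zfp503, Zfp703 and Zfp365 stand apart along the KO2 axis alone.

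Values are given first for 3 of the 7 clusters, the pair with the most members and the one with the highest change in KO2. The 10 members at 21008903 to 22867134 of chromosome 17, all with KRAB boxes, had medians of -0.35 (KO1) and -0.28 (KO2), and 8 of them were lower in both KO libraries. The 10 members at 29768552 to 30169750 of chromosome 7 had -0.34 and -0.26, with 8 lower in both. The 6 members at 47877204 to 48445825 of chromosome 6 had 0.08 and 0.20, with 1 lower in both. The median GC content of these clusters was 37.9%, 47.1% and 55.8% in the same order. Among all 7 clusters the changes did not follow GC content throughout. The 7 members at 127233061 to 127885996 of chromosome 7, with a median GC content of 53.9%, had -0.27 and -0.33. Of these, 5 were lower in both, and 1 had a KRAB box. The 5 members at 12478293 to 12985714 of chromosome 7, with 46.5%, had 0.06 and -0.07. Neighbouring KRAB genes can share sequence, and 18 members had fewer than 90% of their transcript 50-mers unique to the gene. Reads from the shared parts could therefore be missing from their counts. The 190 other members had medians of -0.16 and -0.17.

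Members with studied roles were described from a list of 28 genes, of which 26 were members. Of these, 14 were lower and 5 higher than E8.5 WT in KO1 as well as KO2. Among all 208 members the shares were 59.1% lower and 17.8% higher, and among the other genes 39.1% and 35.1%. The list is thus a description and sets its genes apart from the members in no way. Zfp568, a KRAB repressor needed in the early mouse embryo, had 2157 reads in the E7.5 WT library, 3372 in the E8.5 WT library, 1738 in KO1 and 2619 in KO2. Its log2 changes were -0.39 and -0.35, so the difference between the KO libraries was small beside the change. Zfp57, which maintains imprinted methylation, had 480, 361, 214 and 395 reads and changes of -0.19 and 0.15 on opposite sides of 0. Zfp809, which silences retroviral sequences, had 243, 198, 153 and 238 reads and changes of 0.19 and 0.28.

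Zfp143, a promoter-binding activator, had changes of -0.45 and -0.44, and Zfp207, a spindle assembly factor with 4772, 2665 and 3882 reads in the E8.5 WT, KO1 and KO2 libraries, had -0.28 in both. Zfp106, which binds RNA and had the most reads of any member, had 5267, 6761, 3574 and 5619 reads and changes of -0.36 and -0.25. Zfp598, a ubiquitin ligase that acts on collided ribosomes, had changes of 0.01 and 0.27, and Zfp622, a factor of ribosome maturation, -0.28 and 0.02. Zfp423, Zfp462 and Zfp711 were higher in KO1 and lower in KO2 than in E8.5 WT. Zfp42, the pluripotency marker Rex1, was under the read threshold, with 145 reads in the E7.5 WT library, 12 in the E8.5 WT library, 6 in KO1 and 38 in KO2.

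At the read threshold, members and genes left out lay close in level. Zfp867, Zfp747 and Zfp81, with means of 101, 103.0 and 103 reads, had mean log2 changes of -0.54, -0.21 and -0.26. Zfp563, Zfp952 and Zfp667 fell just outside with means of 99.5, 98.5 and 96.3 reads and had changes of -0.41, -0.26 and 0.25. The 109 Zfp genes under the threshold that had enough counts for the fit had medians of -0.17 for KO1 and -0.20 for KO2.

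The second comparison set the KO libraries against E7.5 WT, because the KO embryos were delayed. Zfp genes were slightly higher in each KO library than in E7.5 WT, with medians of 0.10 (KO1) and 0.15 (KO2) (mean 0.12 ± 0.039, SD, n = 2), where the other genes had 0.01 and 0.01. This direction was lost with a correction for transcript GC content, under which the mean of the medians was -0.0043. Of the members 114 (54.8%) were higher in both, against a background of 43.6% of the other genes. Of the members, 8 passed a log2 change of 1 in both KO libraries, all upward, beside a background of 7.02% of all genes kept and 4.46% of the other genes above 1 and 2.67% of all genes kept below -1. Their share was no larger than the background.

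These 8 were Zfp369, Zfp945, Zfp871, Zfp608, Zfp937, Zfp329, Zfp109 and Zfp711. Zfp711, an X-linked transcription factor gene (112600526 to 112635070, plus strand), had 90 reads in the E7.5 WT library, 394 in the E8.5 WT library, 311 in KO1 and 276 in KO2. All 3 libraries of the later day were above E7.5 WT, with log2 changes of 2.27 and 1.56 in KO1 and KO2. Zfp871 had 748, 2318, 1197 and 1536 reads, and both KO libraries lay between the WT stages. Of the transcript 50-mers of Zfp937, 68.5% were unique to the gene. The edgeR test called 0 members against E7.5 WT and 0% of all genes kept, and at an unadjusted p under 0.05 it gave 44 members, 36 of them higher, among 24.6% of all genes kept. DESeq2 called Zfp871 (adjusted p = 0.00291), Zfp711 (adjusted p = 0.0139) and Zfp608 (adjusted p = 0.0495), beside 6.43% of the genes it tested.

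Between the WT stages, Zfp genes were higher at E8.5. The median log2 difference of the members was 0.34, and that of the other genes -0.03. Higher in E8.5 WT were 142 members (68.3%), against a background of 48.1%. By more than 1, 16 members (7.69%) were higher and 1, Zfp473, was lower, against backgrounds of 8.15% and 3.67% of the other genes. The members' median was thus shifted modestly, without an excess of large differences. Not all members shared the shift, since their lower quartile was -0.12. In the highest of 5 equal classes of transcript GC content their median was -0.20. There was 1 library a stage, so the difference between the stages has no replicate check. The comparisons share libraries, E8.5 WT in the first and the third and E7.5 WT in the second and the third, so their values are not independent.

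Set side by side over the 4 libraries, E8.5 WT was the highest for 104 of the 208 members, where the background was 24.1% of the other genes. Both KO libraries lay between a lower E7.5 WT and a higher E8.5 WT for 72 members (34.6%), against 15.7%. These backgrounds span all GC contents. In the lowest of 5 equal classes of transcript GC content, E8.5 WT was highest for 63.1% of members and 49.4% of other genes. Both KO libraries lay between for 45.2% of members and 38.3% of other genes there. In the highest class the shares were 22.9% against 10%, and 11.4% against 4%.

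The changes moved with GC content across all genes. In the lowest of 5 equal classes of transcript GC content, which held 84 of the members, the other genes had -0.11 in KO1 and -0.12 in KO2 as medians against E8.5 WT, and 0.45 between the WT stages. In the highest class they had 0.09, 0.12 and -0.36. The members had -0.24, -0.18 and 0.56 in the lowest class and 0.06, 0.01 and -0.20 in the 35 members of the highest class. Within each class the members' medians were below those of the other genes in both KO libraries and above them between the WT stages. Lower in both KO libraries were 69.0% of members and 57.4% of other genes in the lowest class, and 28.6% and 25.2% in the highest. Higher in E8.5 WT than in E7.5 WT were 86.9% and 81.6% in the lowest class, and 40% and 24.6% in the highest. Across the 208 members, Spearman's rho between transcript GC content and the change against E8.5 WT came to 0.37 for KO1 and 0.22 for KO2, a description over genes that share libraries and base composition. With transcript length in place of GC content, rho was -0.06 for KO1 and -0.33 for KO2. For the difference between the WT stages it was 0.44 with length and -0.47 with GC content. Length was not corrected for. With a smooth curve of change against GC content subtracted, the members were lower than other genes of the same read level by a mean of 0.14, where they were lower by 0.19 without it. The median difference between the WT stages was then 0.13.

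**Figure D4:**
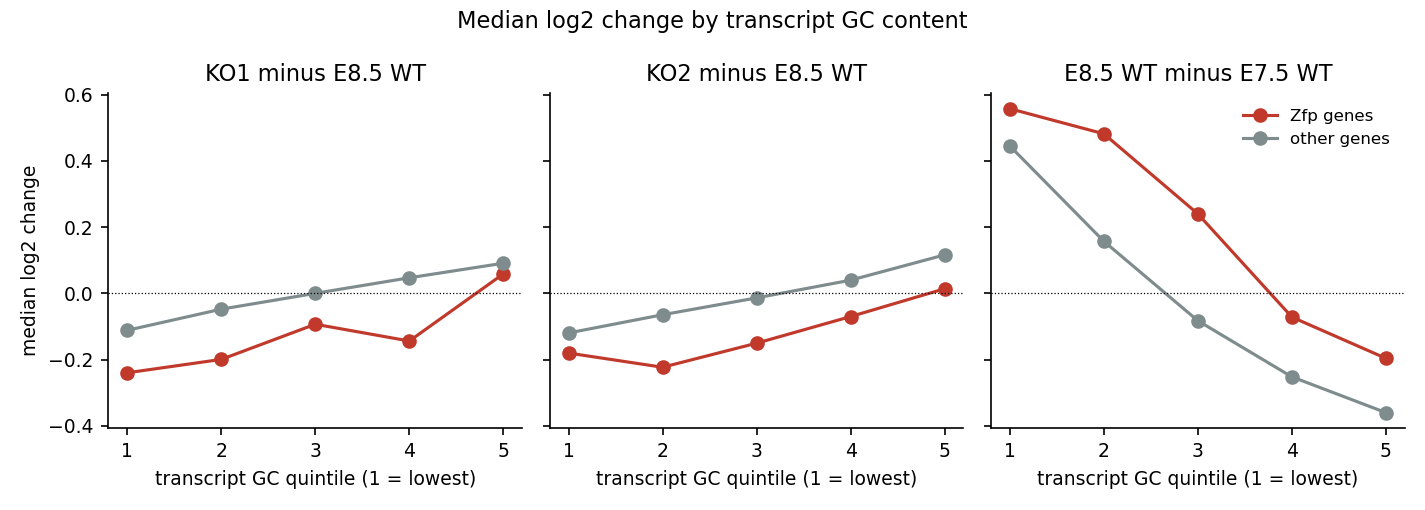
Median log2 change of Zfp genes and other genes in 5 classes of transcript GC content (quintiles, 1 = lowest), in KO1 and KO2 against E8.5 WT and in E8.5 WT against E7.5 WT. Medians of the other genes rise with GC content in the KO panels, those of the Zfp genes are below them in every class, and both groups fall in the stage panel, from 0.45 to -0.36 in the other genes between the WT stages.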

How the data were processed

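Whole embryos were sequenced with a stranded mRNA kit in 4 libraries, grouped by their labels. The authors deposited raw read counts per gene with no normalization, made with cutadapt 2.8, HISAT2 2.1.0 on mm10 and featureCounts 2.0.0. Counts of all genes were scaled by the trimmed mean of M-values in edgeR 4.0.16 (R 4.3.3). A gene entered the fit when any 1 library held 10 or more of its counts (14393 genes), and log2 CPM had a prior count of 2.

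The edgeR quasi-likelihood test with 3 groups was the main test (two-sided, Benjamini-Hochberg adjustment over all genes kept), and DESeq2 1.42.0 the alternative. A log2 change above 1 or below -1 was the authors' size criterion. Requiring it in both KO libraries was added here, and such calls carry no p-value. Counting intervals were exact Clopper-Pearson 95% intervals of a gene's reads in a pair of libraries. The scripts were tested on simulated data.

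Of the genes, 24027 were matched to GENCODE M21 (GRCm38, the assembly of mm10), 651 by an older symbol, and all 208 members were matched. Fingers and KRAB boxes were searched in 1 translated coding sequence per gene instead of RefSeq proteins, so a box missing from that isoform was not found. A KRAB box needed at least 20 matches to its consensus positions. The printed stretches came from GENCODE transcripts.

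Members and lists were chosen with earlier results of these data known. Named were Ddx6, the 10 highest and 10 lowest members of 1 sign in both KO libraries, members past the size criterion, the 5 with most reads, the 3 nearest to the read threshold on each side, and a role list and a cofactor list. Genes named as lists of counts were chosen after their values were seen. Zfp536 of the role list had under 10 counts in every library. The visceral endoderm, decidua, primitive erythroid, neural plate and heart lists summed to 4838, 58.2, 241, 222 and 124 CPM in E8.5 WT, to 2445, 83.4, 1.80, 143 and 32.4 in KO1, and to 2277, 216, 1.56, 270 and 32.5 in KO2. Alternatives were other scalings, filters, prior counts, read thresholds and a GC correction (lowess with a span of 0.3).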

Additional observations from a re-analysis of the deposited data

How the results depend on the processing

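The members' median against E8.5 WT stayed negative under every alternative run, and the members stayed below other genes of the same read level. The median change against E8.5 WT (-0.16) was -0.11 with plain CPM and -0.098 with the GC correction. The difference from other genes at the same read level (-0.19) was -0.22 with a read threshold of 50, -0.15 with 300 and -0.14 with the GC correction. The median against E7.5 WT (0.12) was 0.17 with plain CPM and turned to -0.0043 with the GC correction, and the difference between the WT stages (0.34) was 0.13 with it. With a threshold of 300 reads, which leaves fewer members, 17 were higher and 60 lower than E8.5 WT in KO1 as well as KO2, and 3 were above 1 against E7.5 WT, and with 50 reads 2 were below -1 against E7.5 WT. A log2 threshold of 0.5 gave 0 members above and 10 below it against E8.5 WT, and 35 above and 8 below it against E7.5 WT. Shares of other genes past 0.5 are not given here, so these counts are not read as a result about the members. Against E7.5 WT, DESeq2 called 3 members, beside 6.43% of the genes it tested. With no filter on low counts, edgeR called 6 (Zfp871, Zfp608, Zfp292, Zfp329, Zfp26 and Zfp711), and the cause was not tested. The share of all genes called by edgeR without the filter is not given here. Its 6 calls are therefore not read as a result about the members. Against E8.5 WT no alternative called a member.

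Leaving out KO1 or KO2 needs only 1 library to pass. Members higher than E8.5 WT were then 61 and 61, members above 1 between 0 and 1 and below -1 between 0 and 2 against E8.5 WT. Without KO1 the members below -1 were Zfp503 and Zfp703, and the member above 1 was Zfp365. Against E7.5 WT, members above 1 were 9 to 15 and below -1 0 to 4. No shares of other genes are given for these settings, so the counts show only how far the results moved. No paired analysis was possible because each WT stage had 1 library. Depth limited single members near 100 reads, and 1 library per WT stage limited every test. Under alternatives that used both KO libraries, 6 of 275 values of single named genes changed sign.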
